A study of Mus musculus with 16 samples.

Results

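The 31 genes described here encode enzymes of the mevalonate and sterol pathway, the proteins that sense sterol and control SREBP2, and proteins that move or store cholesterol in the cell. The rule that picked them names gene symbols for these roles and uses no measured value, although earlier results of these data were known when the list was drawn up. All 31 were found among the 15871 entries of the count table, and all 31 were among the 13527 entries that passed the filter on low counts. The least covered of them, Pmvk, had at least 231 reads in every library. By role, 6 genes serve the steps between acetyl-CoA and isopentenyl diphosphate, 2 make longer prenyl diphosphates, 12 act between squalene and cholesterol, 6 control SREBP2, and 4 carry, release or store cholesterol. The last, Acat1, encodes the mitochondrial thiolase that carries the same reaction as the cytosolic thiolase Acat2.

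RNA was sequenced from peritoneal macrophages that had been drawn by starch (6%) into the peritoneum of wild type C57BL/6 mice aged 8 weeks and then cultured. There were 4 groups of 4 libraries each. H_O received high glucose (33 mmol/L) together with oxidised low density lipoprotein (ox-LDL), L_O received ox-LDL at low glucose, H_C received high glucose alone, and L_C received mannitol (27.5 mM), a sugar alcohol used as an osmotic control, each for 48 h. The ox-LDL dose is written in the labels as 50 mg/ml. The design compares these genes with and without ox-LDL at either glucose level, and at high and low glucose with or without ox-LDL. No osmotic control is named for L_O, so glucose and its osmotic load cannot be told apart in H_O against L_O. Mannitol is named on the labels of L_C only, so that L_O may differ from L_C in mannitol as well as in ox-LDL, and the part of mannitol cannot be told apart there. The labels do not say whether the 4 replicates of a group were separate mice or separate dishes, and the spread behind the p-values may therefore be technical.

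Cholesterol is built from acetyl-CoA through mevalonate, isoprenoid diphosphates and squalene. The genes of this route are switched on by SREBP2, a transcription factor that is made as a precursor in the membrane of the endoplasmic reticulum. When sterol in that membrane is scarce, the escort protein SCAP carries SREBP2 to the Golgi, where 2 proteases cut it and its free part enters the nucleus. When sterol is plentiful, INSIG proteins hold SCAP and SREBP2 in the endoplasmic reticulum. Macrophages that take up ox-LDL release cholesterol from it in lysosomes and store part of it as esters, which gives them the appearance of foam cells.

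Library totals ranged from 32596640 to 41712885 reads. The 7 macrophage markers summed to 19753 to 21363 CPM (counts scaled to a common library size) in H_O, 18328 to 18955 CPM in L_O, 17954 to 18565 CPM in H_C and 16742 to 18557 CPM in L_C. The B cell list stayed at or under 2.10 CPM and the T and NK cell list at or under 4.26 CPM in every library. L_C replicate 4 stood apart from the other libraries in its share of mitochondrial reads, at 3.71%, against 1.48% to 2.30% in the other 15 libraries. Its share of ribosomal protein reads was 1.28%, against 1.47% to 1.77% in the others. L_C replicate 4 had the lowest level among L_C libraries for Npc2, Lss, Ebp, Tm7sf2, Lbr, Insig2, Acat2, Pmvk, Hsd17b7, Insig1, Mbtps1, Mbtps2 and Stard4. Its level was the highest for Nsdhl, Sc5d, Dhcr7, Npc1, Mvk, Ggps1, Cyp51, Srebf2 and Soat1. Some library is the lowest or highest for any gene, and some margins were small, as for Soat1 at 993.1 CPM against 992.1 CPM in L_C replicate 2. In bulk RNA, fewer cells of a type and less RNA per cell cannot be told apart.

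SREBP2 binds a sterol regulatory element in the promoters of its targets, usually beside sites for the factors NF-Y and Sp1, and the promoters of the 31 genes were read for these letters. RefSeq windows of 300 bases (GRCm38.p6, 250 before and 50 after the annotated start) matched 25 of the 31 genes. The sterol element core TCACNCCAC, sought on both strands, lay in a window of 1 of these 25 genes, Hmgcs1, where 1.44% of all 27025 genes with windows held it (1.24% of all 32851 windows). Its shorter form TCACNCCA, which also counts every match of the longer one, lay in the windows of 3 genes, Hmgcs1, Msmo1 and Srebf2, where 4.97% of all genes held it (4.36% of all windows). The NF-Y box CCAAT, which reads ATTGG on the other strand, was held by 21 of 25 genes, where 41.1% of all genes held it (37.4% of all windows). The Sp1 box GGGCGG was held by 22 of 25 genes, where 38.2% of all genes held it (35.7% of all windows). The E-box CACGTG was held by 5 of 25 genes, where 8.09% of all genes held it (7.15% of all windows). A gene was counted if any of its windows held a match. The 27025 genes were not limited to entries tested here, whereas all 25 genes were tested, and the part of this in the shares was not tested. A match describes the letters only and is not a measured binding site.

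The following sequences show the 250 bases before the start for 5 genes, 5′ to 3′ on the gene's own strand, with every match in capitals. Where a gene has several annotated starts, the window farthest upstream is shown. Hmgcs1 (chr13:119690101-119690350, plus strand) is shown as the gene that holds the full sterol element core, at -137 bases from its start. Srebf2 (chr15:82147019-82147268, plus strand) encodes SREBP2 itself and holds the shorter core at -162. Insig1 (chr5:28071162-28071411, plus strand) and Sc5d (chr9:42264301-42264550, minus strand) were among the genes with the smallest adjusted p-values under ox-LDL, while Insig2 (chr1:121332590-121332839, minus strand) passed no test. The shorter core and the last 4 genes were chosen after values and sequences had been seen.
Hmgcs1: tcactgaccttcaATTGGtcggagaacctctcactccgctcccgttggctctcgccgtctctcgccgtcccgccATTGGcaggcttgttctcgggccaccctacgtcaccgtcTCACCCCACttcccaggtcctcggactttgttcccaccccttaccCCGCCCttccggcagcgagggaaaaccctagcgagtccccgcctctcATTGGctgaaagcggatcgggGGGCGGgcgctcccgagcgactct
Srebf2: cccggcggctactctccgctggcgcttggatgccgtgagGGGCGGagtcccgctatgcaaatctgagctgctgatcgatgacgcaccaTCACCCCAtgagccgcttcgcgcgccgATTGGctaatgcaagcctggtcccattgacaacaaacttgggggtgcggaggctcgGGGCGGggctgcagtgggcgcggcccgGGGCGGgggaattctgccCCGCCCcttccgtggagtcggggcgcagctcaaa
Insig1: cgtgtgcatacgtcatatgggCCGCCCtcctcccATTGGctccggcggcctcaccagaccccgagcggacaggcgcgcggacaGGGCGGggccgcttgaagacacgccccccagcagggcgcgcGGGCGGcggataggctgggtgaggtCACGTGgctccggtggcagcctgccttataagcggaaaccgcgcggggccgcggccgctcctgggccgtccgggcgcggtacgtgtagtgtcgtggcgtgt
Sc5d: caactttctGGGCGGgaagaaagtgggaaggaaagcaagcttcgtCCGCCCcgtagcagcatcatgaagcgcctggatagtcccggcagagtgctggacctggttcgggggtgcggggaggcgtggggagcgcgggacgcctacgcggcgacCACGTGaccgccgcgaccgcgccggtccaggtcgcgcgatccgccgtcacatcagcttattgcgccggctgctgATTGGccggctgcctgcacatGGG
Insig2: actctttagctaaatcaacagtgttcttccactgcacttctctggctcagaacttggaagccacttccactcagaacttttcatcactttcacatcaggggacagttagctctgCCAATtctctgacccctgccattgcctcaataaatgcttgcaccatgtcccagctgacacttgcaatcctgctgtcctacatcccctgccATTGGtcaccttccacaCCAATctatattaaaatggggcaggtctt

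In these letters, Hmgcs1 carries the core TCACCCCAC with 2 NF-Y matches before it and 2 Sp1 matches and 1 NF-Y match after it. Insig1 and Sc5d carry NF-Y, Sp1 and E-box matches without a sterol core, and Insig2 carries NF-Y matches alone in the window shown. Windows at other annotated starts of Insig2 hold Sp1 matches, at -6 and -128 bases, and no NF-Y match. Which start these cells use was not tested. The last capitals of Sc5d open an Sp1 match that crosses the start. NF-Y matches were thus not confined to genes that ox-LDL lowered: among genes with a window, 14 of the 15 lower in L_O than in L_C (a comparison in which 13.8% of all tested entries fell) and 7 of the other 10 held one. Sp1 matches were held by 15 of those 15 and by 7 of the other 10, and E-boxes by 4 and by 1.

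**Figure D1:**
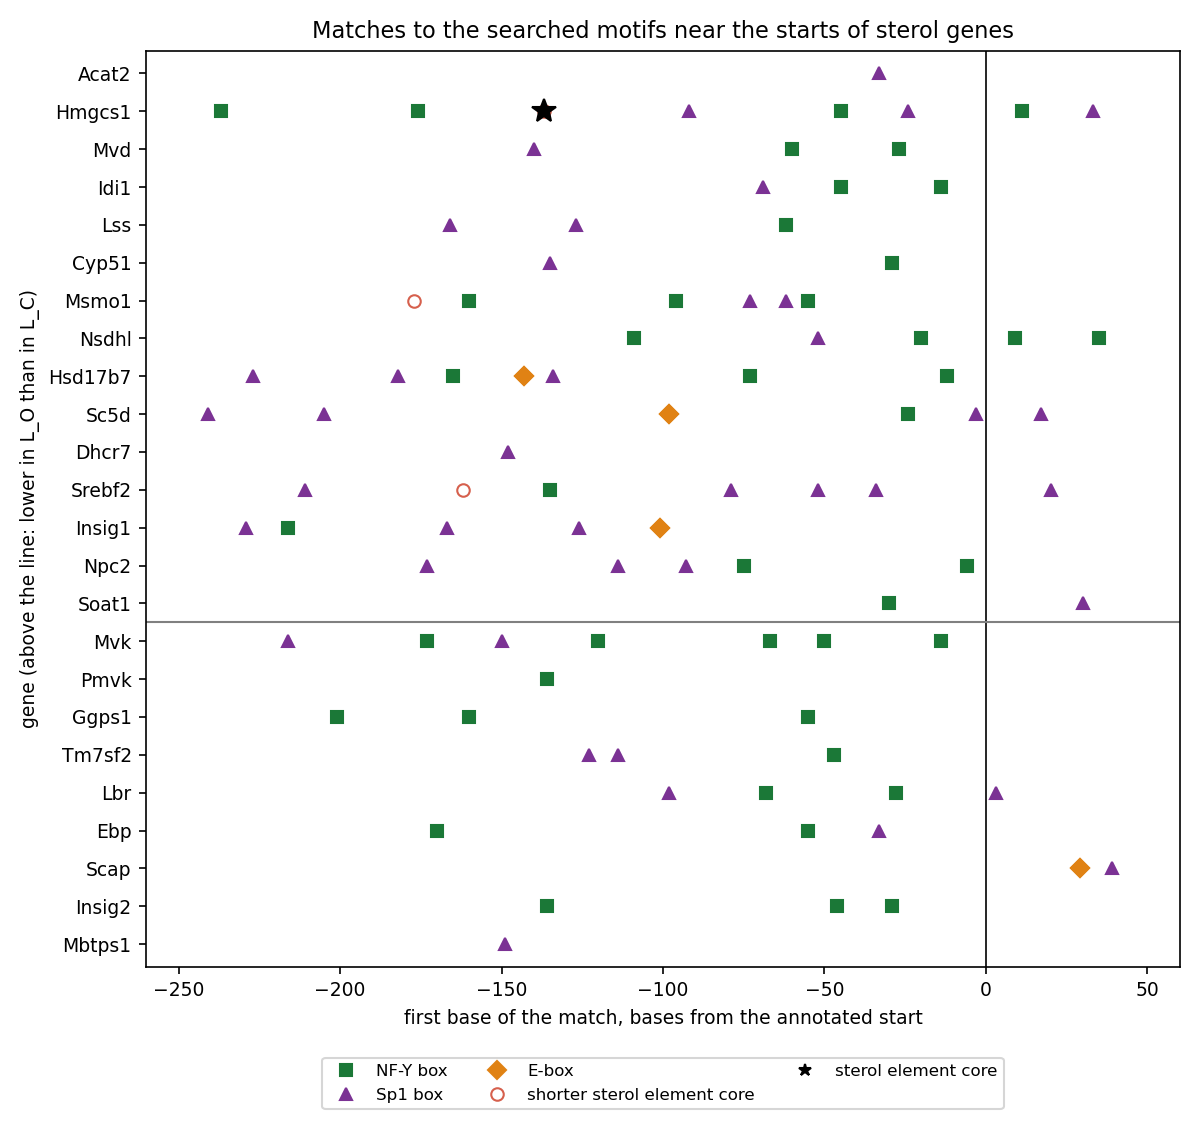
Matches to the searched motifs around the starts of the sterol genes, with the distance of each match's first base from the annotated start on the x axis (bases) and 1 gene a row. Genes lower in L_O than in L_C stand above the line, symbols mark the motif, and where a gene has several annotated starts the window farthest upstream is drawn. The single full sterol core lies in Hmgcs1 at -137, and NF-Y and Sp1 matches appear on both sides of the line. Mbtps2 had no match, and 6 genes without a RefSeq window are not drawn.

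Per kilobase of exon, 3 of the 4 genes that release, carry or store cholesterol were the most abundant of the 31. In L_C, Npc2 reached 321 CPM per kb, Soat1 101 and Npc1 62.2, whereas Stard4, the fourth, stood at 8.34. Among the controllers, Insig1 stood at 36.9 CPM per kb in L_C and Srebf2 at 30.1, whereas Insig2 stood at 8.29 and Scap at 9.50. Hmgcs1 was the most abundant synthesis enzyme at 28.7 CPM per kb, followed by Mvd at 21.4 and Msmo1 at 21.0, and Hsd17b7 was the least abundant at 3.04.

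The 20 enzymes between acetyl-CoA and cholesterol summed to 635 ± 8.32 CPM in H_O, 687 ± 12.3 CPM in L_O, 847 ± 15.1 CPM in H_C and 972 ± 42.7 CPM in L_C (mean ± SD, n = 4 each). The lowest and highest libraries were 625 and 644 CPM in H_O, 673 and 703 CPM in L_O, 826 and 859.5 CPM in H_C, and 916 and 1020.4 CPM in L_C. No libraries of different groups overlapped in this sum. The ox-LDL groups were the lower ones at either glucose level, and the high glucose group was the lower one with or without ox-LDL.

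**Figure D2:**
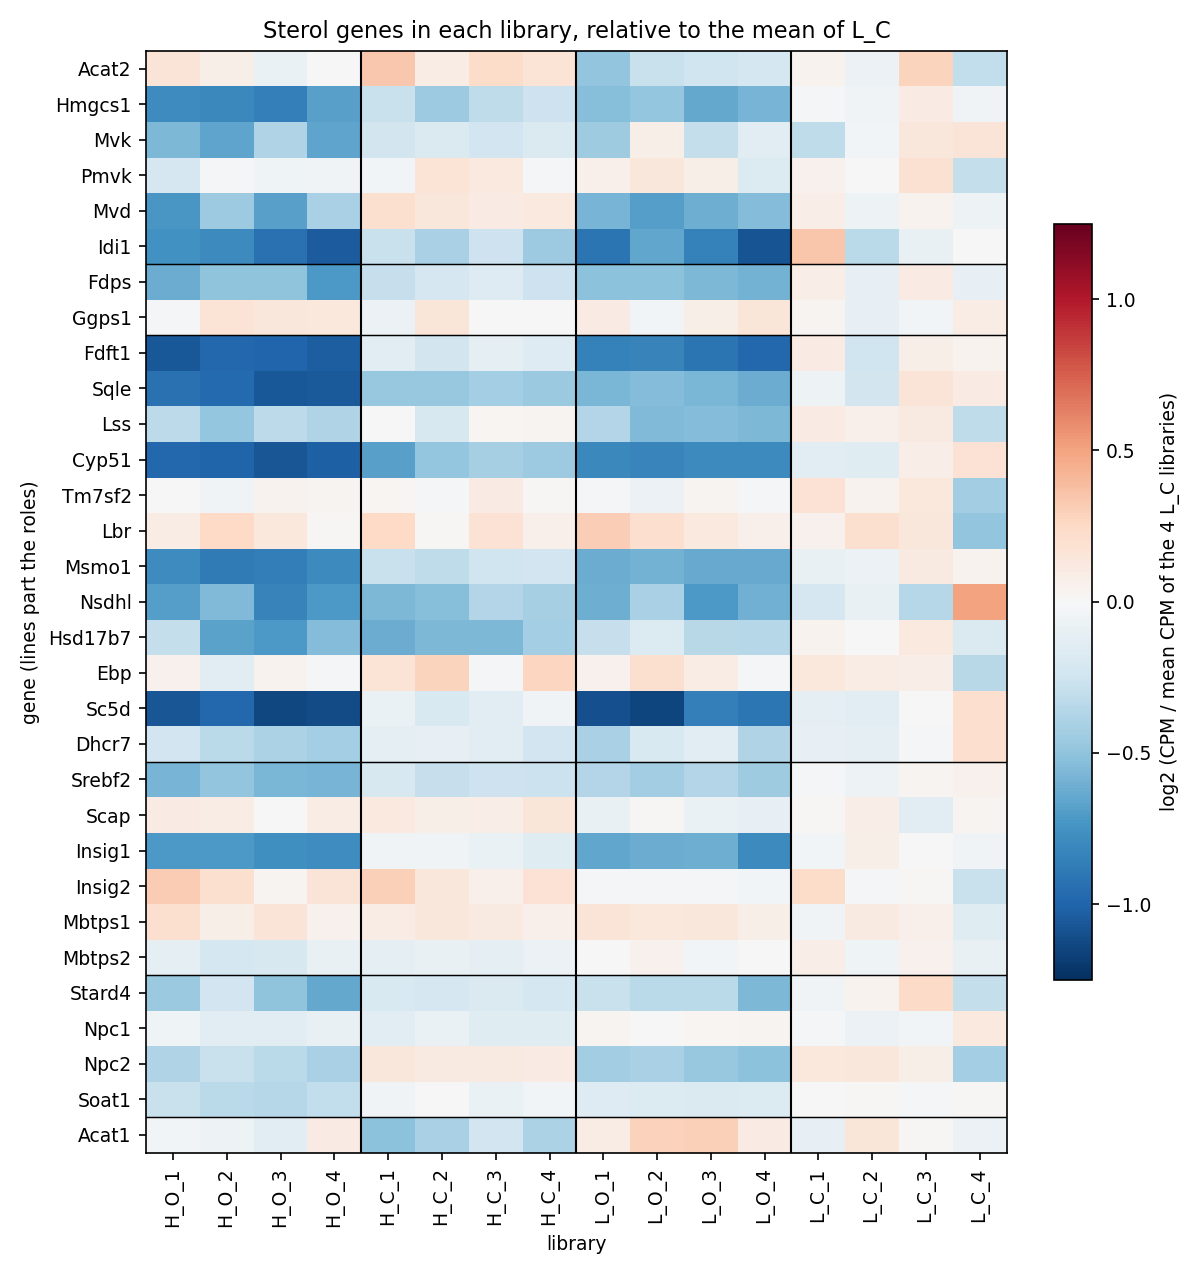
Each of the 31 genes (rows, parted by role) in each of the 16 libraries (columns), as log2 of its CPM over the mean CPM of the 4 L_C libraries. Blue is lower and red is higher than that mean. Fdft1, Sqle, Cyp51, Msmo1, Sc5d and Insig1 are blue in all H_O and L_O libraries, while Scap, Ggps1, Mbtps1 and Npc1 stay near white throughout.

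At low glucose, 19 of the 31 genes fell with ox-LDL and 0 rose (L_O against L_C), where 13.8% of all tested entries fell and 12% rose. At high glucose, 15 fell and 1, Acat1, rose (H_O against H_C), where 11.5% of all tested entries fell and 10.4% rose. A gene was called at an adjusted p under 0.05 in edgeR's quasi-likelihood test with Benjamini-Hochberg adjustment over all 13527 entries. At an unadjusted p under 0.05 the positive differences were 2 at low glucose, Mbtps1 and Acat1. The median log2 fold change of the 31 genes was -0.25 in H_O against H_C and -0.30 in L_O against L_C, where the median of all tested entries was 0.00894 and 9.25e-04. The groups did not overlap for 16 genes lower and 1 gene higher in H_O than in H_C, where 14.8% of all entries were below and 14.8% above without overlap. For L_O against L_C, 15 genes were lower and 0 higher without overlap, where the shares of all entries were 13.9% and 12.2%.

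The set that fell was largely shared between the glucose levels, whose comparisons use separate libraries. There were 14 genes lower in both, which is 14 of the 15 at high glucose and 14 of the 19 at low glucose. Over all tested entries 1207 (8.92%) were lower in both, of 1556 lower at high glucose and 1867 at low glucose. The falls were thus largely shared over the whole table as well. The 14 genes were Hmgcs1, Mvd, Idi1, Fdps, Fdft1, Sqle, Lss, Cyp51, Msmo1, Sc5d, Srebf2, Insig1, Npc2 and Soat1. Mvk passed the test at high glucose only, and Acat2, Nsdhl, Hsd17b7, Dhcr7 and Stard4 at low glucose only. Across the 31 genes the log2 fold changes of the 2 comparisons correlated with Pearson's r of 0.897 and Spearman's rho of 0.892, a description over genes that are not independent replicates.

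**Figure D3:**
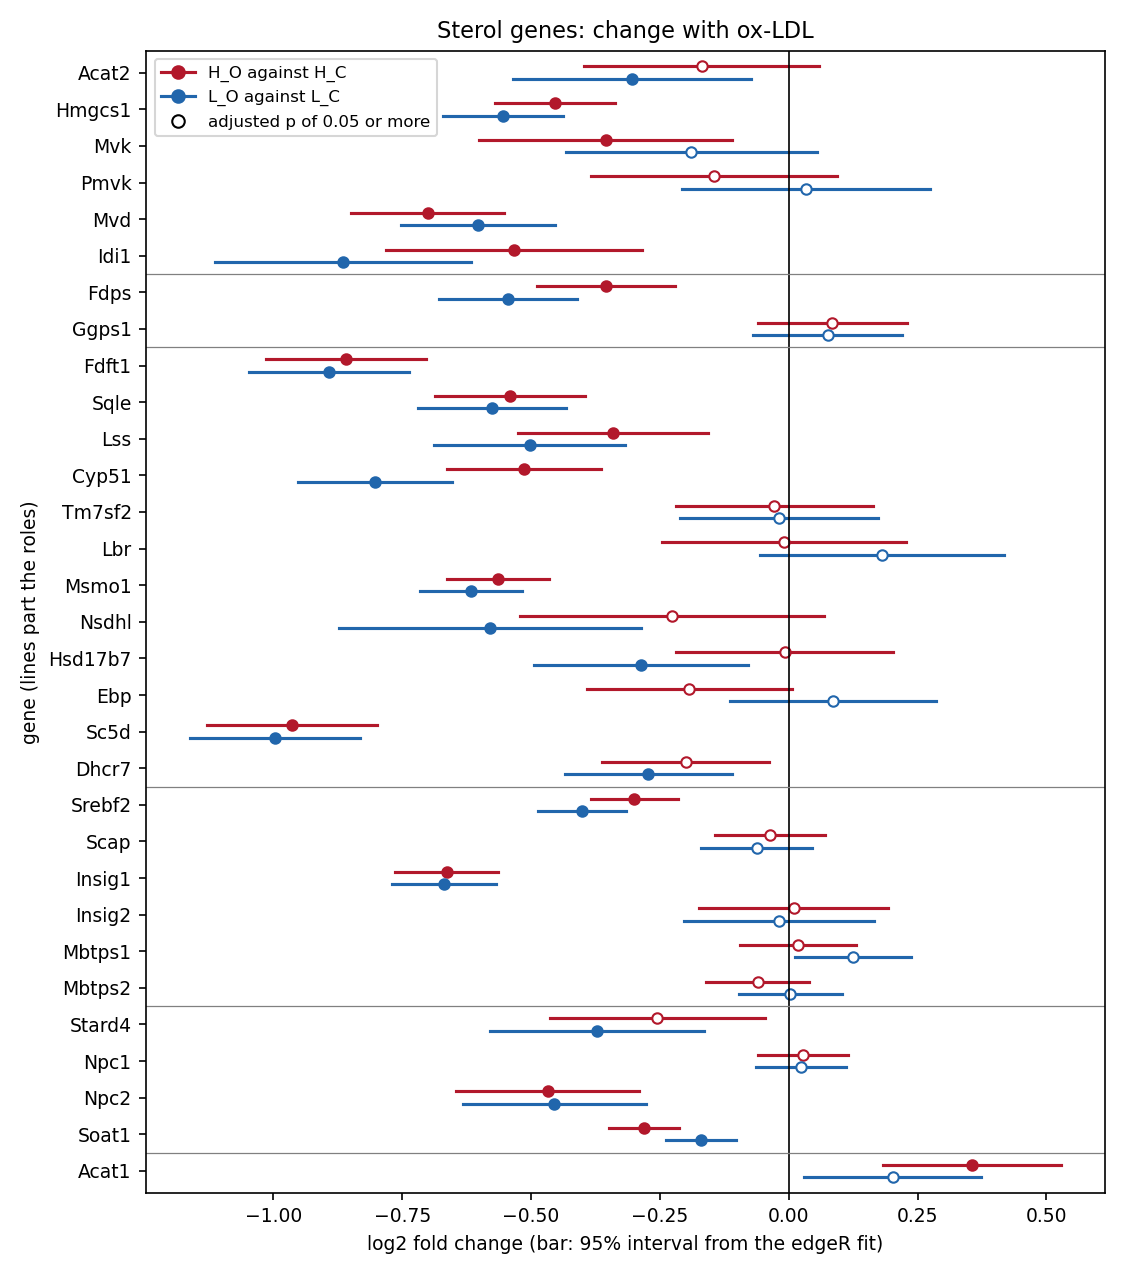
Log2 fold change with ox-LDL for each of the 31 genes (rows, parted by role), H_O against H_C and L_O against L_C, with 95% intervals from the edgeR fit. Filled points have an adjusted p under 0.05 and open points do not. Most synthesis enzymes lie left of 0 at both glucose levels, with Sc5d farthest left at -0.96 and -0.997, and Acat1 lies right of 0 at 0.36 and 0.20.

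Of the 6 genes between acetyl-CoA and isopentenyl diphosphate, 4 fell at each glucose level, and Hmgcs1, Mvd and Idi1 did so at both. Of all tested entries, 11.5% fell at high glucose and 13.8% at low glucose. Hmgcs1 (ENSMUSG00000093930, chromosome 13, 119690379 to 119708260, mm10 with GENCODE M21 as for all genes here), whose product condenses acetyl-CoA with acetoacetyl-CoA into HMG-CoA, had 76.7, 75.6, 72.7 and 82.6 CPM in H_O, against 109, 96.3, 106 and 111 CPM in H_C. At low glucose it had 91.5, 94.6, 84.9 and 88.4 CPM in L_O, against 130.2, 128, 141 and 128 CPM in L_C. Every ox-LDL library lay below every library without ox-LDL at the same glucose level. An annotated antisense entry, Gm48342, covers 12.1% of its exon bases. The log2 fold change was -0.45 ± 0.055 (± SE here and for all log2 fold changes, adjusted p = 6.45e-06) in H_O against H_C and -0.55 ± 0.055 (adjusted p = 4.90e-07) in L_O against L_C. Mvd, the decarboxylase that closes the mevalonate steps, averaged 27.0 ± 3.01 CPM in H_O and 43.8 ± 1.27 CPM in H_C (SD, n = 4 each), a log2 fold change of -0.70 ± 0.071. At low glucose Mvd averaged 26.2 ± 1.12 CPM in L_O and 39.7 ± 2.03 CPM in L_C, a log2 fold change of -0.60 ± 0.071. Idi1, the isomerase that makes dimethylallyl diphosphate, fell by 0.53 on the log2 scale in H_O against H_C and by 0.87 in L_O against L_C. Of its 50-base words, 17.7% also occur in other genes, most of them in Gm13502, so its counts may be shared.

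The kinases of this stretch behaved less uniformly. Mvk, mevalonate kinase, averaged 11.4 ± 1.07 CPM in H_O and 14.6 ± 0.307 CPM in H_C without overlap, and its log2 fold change of -0.36 ± 0.12 passed the test (adjusted p = 0.0357). Leaving out any of H_O replicates 1, 2 and 4 or H_C replicates 1, 2 and 4 ended that call, with adjusted p between 0.0632 and 0.0985. At low glucose the log2 fold change of Mvk was -0.19 ± 0.12 (adjusted p = 0.256). Pmvk, phosphomevalonate kinase, passed neither test, with log2 fold changes of -0.14 ± 0.11 and 0.034 ± 0.11 at high and low glucose.

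The 2 thiolases were set side by side because both join acetyl-CoA units, Acat2 in the cytosol for sterol synthesis and Acat1 in mitochondria for ketone bodies and isoleucine. Acat1 (ENSMUSG00000032047, chromosome 9, 53580522 to 53610382) was the 1 gene of the 31 that rose, with 21.1, 20.6, 19.7 and 23.2 CPM in H_O, against 15.1, 16.3, 18.3 and 16.5 CPM in H_C. All 4 H_O libraries lay above all 4 H_C libraries, and the log2 fold change was 0.36 ± 0.082 (adjusted p = 0.00385). The L_O libraries of Acat1 had 23.1, 26.4, 26.6 and 23.2 CPM, against 20.1, 23.9, 21.8 and 20.6 CPM in L_C. These groups overlapped, and the log2 fold change was 0.20 ± 0.082 (adjusted p = 0.0797). Without L_C replicate 2 the low glucose difference passed the test as well, with adjusted p = 0.0374.

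Acat2 (ENSMUSG00000023832, chromosome 17, 12942890 to 12960747) had 14.6, 13.8, 12.4 and 13.1 CPM in H_O, against 16.6, 14.0, 15.4 and 14.8 CPM in H_C. Its low glucose levels were 9.34, 10.9, 11.0 and 11.2 CPM in L_O, against 13.5, 12.5, 15.9 and 10.6 CPM in L_C. The groups overlapped at both levels. The log2 fold change was -0.17 ± 0.11 (adjusted p = 0.319) at high glucose and -0.30 ± 0.11 (adjusted p = 0.0499) at low glucose. The low glucose call was lost in 21 of 25 alternatives, among them the leaving out of any library other than L_C replicate 4, with adjusted p between 0.0552 and 0.182. Without L_C replicate 3 its log2 fold change was -0.20. Of the 50-base words of Acat2, 39.1% are shared with other genes, most with Acat3, which averaged 1.04 CPM in H_O and 0.942 CPM in L_C.

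The prenyl diphosphate synthases parted. Fdps, which makes the farnesyl diphosphate that feeds both squalene and protein prenylation, averaged 36.2 ± 2.61 CPM in H_O and 46.2 ± 1.76 CPM in H_C, a log2 fold change of -0.35 ± 0.063. At low glucose it averaged 37.2 ± 1.04 CPM in L_O and 54.2 ± 4.19 CPM in L_C, a log2 fold change of -0.54 ± 0.063. Both differences passed the test, although 26.7% of Fdps exon bases overlap the annotated entry Gm43738 and its counts are uncertain to that extent. Ggps1, which makes geranylgeranyl diphosphate outside the sterol route, passed neither test, with log2 fold changes of 0.084 ± 0.069 and 0.076 ± 0.069 at high and low glucose.

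Of the 12 genes between squalene and cholesterol, 6 fell at high glucose and 9 at low glucose. The shares of all tested entries that fell were 11.5% and 13.8%. Sc5d (ENSMUSG00000032018, chromosome 9, 42251595 to 42264256), a desaturase of the sterol nucleus late in the route, had 40.1, 42.6, 38.3 and 38.7 CPM in H_O, against 79.3, 73.6, 76.8 and 81.7 CPM in H_C. Sc5d had 39.1, 38.0, 46.4 and 44.9 CPM in L_O, against 77.7, 76.6, 84.5 and 97.3 CPM in L_C. No ox-LDL library reached the lowest library without ox-LDL. The log2 fold change of Sc5d was -0.96 ± 0.078 (adjusted p = 3.86e-08) at high glucose and -0.997 ± 0.078 (adjusted p = 2.45e-08) at low glucose, the largest fall of the 31 genes in each comparison. Fdft1 (ENSMUSG00000021273, chromosome 14, 63145150 to 63179578), squalene synthase, the first enzyme committed to sterols, had 14.8, 15.6, 15.5 and 15.1 CPM in H_O, against 28.2, 26.3, 28.6 and 27.6 CPM in H_C. In L_O the level of Fdft1 was 17.1, 17.3, 16.3 and 15.6 CPM, against 33.0, 26.0, 32.5 and 31.8 CPM in L_C. Again the groups did not overlap, with log2 fold changes of -0.86 ± 0.074 (adjusted p = 7.46e-08) and -0.89 ± 0.073 (adjusted p = 4.47e-08) at high and low glucose.

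Fdft1 shares 18.3% of its exon bases with Ctsb on the opposite strand, a lysosomal protease gene that averaged 15904 CPM in H_O and 18070.3 CPM in H_C. Ctsb fell by 0.18 on the log2 scale in H_O against H_C (adjusted p = 3.92e-05) and by 0.15 in L_O against L_C (adjusted p = 2.93e-04). Whether reads were counted by strand is not given in the sources used here, and the part of Ctsb reads in the Fdft1 values was not tested.

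Msmo1 (ENSMUSG00000031604, chromosome 8, 64718139 to 64733792), the methylsterol oxidase, had 74.5, 69.9, 70.5 and 74.4 CPM in H_O, against 107, 104, 108 and 109 CPM in H_C. At low glucose it had 84.1, 85.4, 83.4 and 83.4 CPM in L_O, against 121, 122, 139 and 133 CPM in L_C. The groups were well apart in both pairs, with log2 fold changes of -0.56 ± 0.047 (adjusted p = 5.10e-08) and -0.62 ± 0.047 (adjusted p = 1.63e-08). Cyp51 (ENSMUSG00000001467, chromosome 5, 4081145 to 4104746), lanosterol demethylase, had 44.0, 43.2, 41.3 and 42.8 CPM in H_O, against 54.3, 62.0, 64.8 and 63.3 CPM in H_C. The L_O libraries of Cyp51 had 49.7, 49.0, 50.0 and 49.9 CPM, against 78.3, 78.3, 91.6 and 98.4 CPM in L_C. The 4 L_O libraries of Cyp51 lay within 49.0 to 50.0 CPM, whereas the L_C libraries spread from 78.3 to 98.4 CPM. Its log2 fold changes were -0.51 ± 0.071 (adjusted p = 2.67e-05) at high glucose and -0.80 ± 0.071 (adjusted p = 9.97e-08) at low glucose.

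Sqle (ENSMUSG00000022351, chromosome 15, 59315077 to 59331192), squalene epoxidase, an oxygen-dependent control point of the route, had 31.4, 30.6, 28.8 and 28.8 CPM in H_O, against 43.1, 43.0, 44.5 and 43.5 CPM in H_C. Its low glucose levels were 40.4, 41.1, 40.1 and 39.0 CPM in L_O, against 57.4, 51.0, 66.9 and 64.2 CPM in L_C. The groups did not overlap in either pair. Its log2 fold changes were -0.54 ± 0.069 (adjusted p = 1.11e-05) and -0.58 ± 0.068 (adjusted p = 4.11e-06) at high and low glucose. Lss, lanosterol synthase, averaged 29.2 ± 1.51 CPM in H_O and 37.0 ± 2.76 CPM in H_C, a log2 fold change of -0.34 ± 0.088. At low glucose Lss averaged 26.8 ± 1.81 CPM in L_O and 37.9 ± 5.05 CPM in L_C, a log2 fold change of -0.50 ± 0.088.

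The remaining 6 genes of this stretch gave mixed results. Nsdhl and Hsd17b7, which act with Msmo1 in removing methyl groups, and Dhcr7, the reductase that yields cholesterol, fell at low glucose by 0.58, 0.29 and 0.27 on the log2 scale (adjusted p = 0.00445, 0.0397 and 0.0131). At high glucose their log2 fold changes were -0.23 ± 0.14, -0.0078 ± 0.10 and -0.20 ± 0.077, and none passed the test. The Nsdhl level in L_C replicate 4 was 33.5 CPM, above the other L_C libraries, and without that library the low glucose log2 fold change was -0.36. The call of Hsd17b7 was lost in 11 of 25 alternatives, among them without L_C replicate 1, 2 or 3 or L_O replicate 1, 3 or 4 (adjusted p between 0.0662 and 0.110). The call of Dhcr7 was lost without L_O replicate 1, with adjusted p = 0.0529, and Dhcr7 passed at high glucose without L_C replicate 4, with adjusted p = 0.0181. The sterol reductases Tm7sf2 and Lbr, which can carry the same step, and the isomerase Ebp passed neither test, with log2 fold changes between -0.19 and 0.18. Without L_C replicate 4, Tm7sf2 passed at low glucose (adjusted p = 0.0361) and Ebp at high glucose (adjusted p = 0.0380).

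Among the 6 genes that control SREBP2, Insig1 and Srebf2 fell at both glucose levels and the other 4 passed neither test. Of all tested entries, 8.92% fell at both levels. Insig1 (ENSMUSG00000045294, chromosome 5, 28071363 to 28078662), an anchor of SCAP that is itself an SREBP2 target, had 69.2, 69.6, 67.0 and 66.8 CPM in H_O, against 111, 111, 108 and 102 CPM in H_C. Insig1 had 72.7, 74.0, 74.7 and 65.8 CPM in L_O, against 111, 119.9, 114 and 111 CPM in L_C. The highest ox-LDL library, at 74.7 CPM in L_O, lay below the lowest library without ox-LDL, at 102 CPM in H_C. The log2 fold changes of Insig1 were -0.66 ± 0.048 (adjusted p = 9.01e-09) at high glucose and -0.67 ± 0.048 (adjusted p = 7.47e-09) at low glucose. Its p-value was the smallest of the 31 genes in both comparisons. Srebf2 (ENSMUSG00000022463, chromosome 15, 82147181 to 82205379), which encodes SREBP2, had 145, 154, 146 and 145 CPM in H_O, against 188, 177, 181 and 180.0 CPM in H_C. In L_O the level of Srebf2 was 168, 160.5, 168 and 159 CPM, against 213, 206, 221 and 224 CPM in L_C. The groups did not overlap, and the log2 fold changes were -0.30 ± 0.040 (adjusted p = 1.95e-05) and -0.40 ± 0.040 (adjusted p = 5.32e-07).

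Insig2 (ENSMUSG00000003721, chromosome 1, 121304353 to 121332589), the second anchor, had 35.8, 33.1, 29.5 and 32.3 CPM in H_O, against 35.4, 31.8, 30.1 and 32.6 CPM in H_C. At low glucose it had 28.4, 28.5, 28.6 and 28.2 CPM in L_O, against 33.9, 28.6, 29.0 and 23.7 CPM in L_C. The groups overlapped in both pairs. The log2 fold change of Insig2 was 0.0096 ± 0.087 at high glucose, with a 95% interval of -0.17 to 0.19, and -0.019 ± 0.088 at low glucose, with an interval of -0.20 to 0.17. Both intervals exclude a fall of the size of Insig1. Scap (ENSMUSG00000032485, chromosome 9, 110333288 to 110384950), the escort, had 75.8, 75.6, 70.7 and 75.5 CPM in H_O, against 77.2, 74.3, 74.8 and 78.7 CPM in H_C. The L_O libraries of Scap had 66.5, 71.6, 66.9 and 65.9 CPM, against 71.4, 75.0, 64.2 and 72.3 CPM in L_C. Its groups overlapped too, and the log2 fold changes were -0.036 ± 0.051, with an interval of -0.14 to 0.071, and -0.063 ± 0.051, with an interval of -0.17 to 0.045. Mbtps1 and Mbtps2, the Golgi proteases, of which Mbtps2 shares 28.4% of its exon bases with Yy2, gave log2 fold changes of 0.018 ± 0.053 and -0.060 ± 0.047 at high glucose and of 0.12 ± 0.054 and 0.0027 ± 0.047 at low glucose. Without L_C replicate 2, Mbtps1 passed the test at low glucose, with adjusted p = 0.0381.

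**Figure D4:**
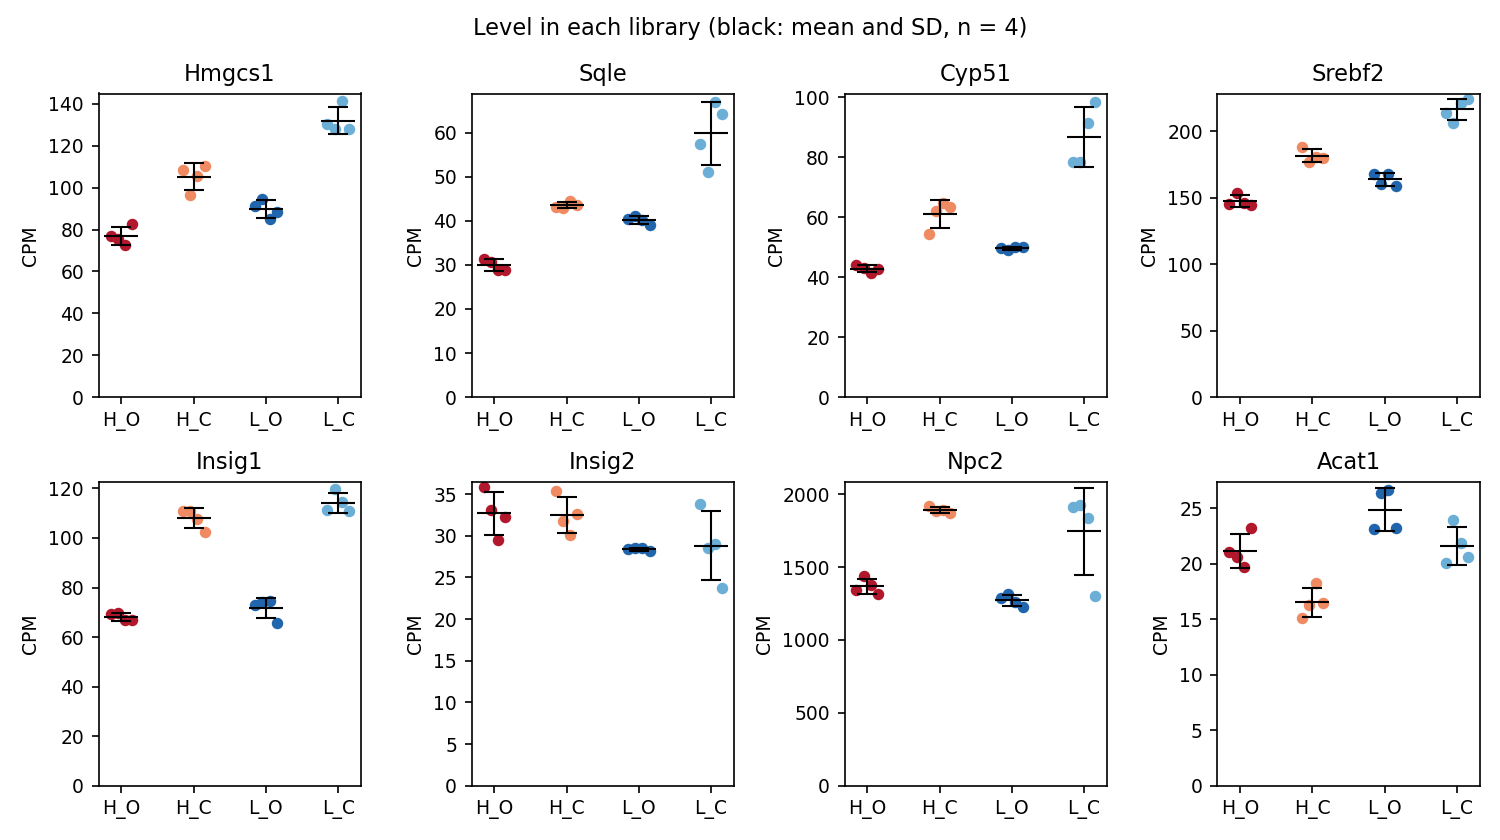
Level in CPM of 8 genes in each library, by group, with the mean and SD in black (n = 4 each). Insig1 lies at 68.1 CPM in H_O and 71.8 CPM in L_O, against 108 CPM in H_C and 114 CPM in L_C, while Insig2 overlaps between the ox-LDL groups and their controls. The single low L_C point of Npc2 is replicate 4.

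Of the 4 genes that release, carry or store cholesterol, 2 fell at high glucose and 3 at low glucose, where 11.5% and 13.8% of all tested entries did. Npc2 (ENSMUSG00000021242, chromosome 12, 84754562 to 84773152), which hands cholesterol to Npc1 inside the lysosome, had 1341, 1436, 1380.4 and 1318 CPM in H_O, against 1921, 1887, 1891 and 1870.4 CPM in H_C. Its low glucose levels were 1289.6, 1317, 1258 and 1228 CPM in L_O, against 1914, 1926, 1841 and 1302 CPM in L_C. The high glucose groups were apart, whereas L_C replicate 4 lay within the L_O range. The log2 fold changes were -0.47 ± 0.084 (adjusted p = 4.52e-04) and -0.46 ± 0.084 (adjusted p = 4.93e-04), and without L_C replicate 4 the low glucose value was -0.57 (adjusted p = 3.80e-11). Npc1 (ENSMUSG00000024413), the membrane protein that exports it, had 676, 642, 643 and 659.9 CPM in H_O, against 641, 663, 635 and 632 CPM in H_C. Npc1 had 722, 702, 716 and 719 CPM in L_O, against 693, 668, 686 and 768 CPM in L_C. Npc1 overlapped between the groups in both pairs and passed neither test, with log2 fold changes of 0.027 ± 0.041 (interval -0.060 to 0.11) and 0.023 ± 0.041 (interval -0.064 to 0.11).

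Soat1 (ENSMUSG00000026600, chromosome 1, 156424525 to 156474331), which esterifies cholesterol for storage in lipid droplets, had 810.0, 779, 772 and 797 CPM in H_O, against 956, 989, 928 and 963 CPM in H_C. In L_O the level of Soat1 was 879, 877, 866 and 876 CPM, against 987, 992, 967 and 993 CPM in L_C. The groups did not overlap, and the falls were small: -0.28 ± 0.032 (adjusted p = 2.95e-06) at high glucose and -0.17 ± 0.032 (adjusted p = 5.72e-04) at low glucose on the log2 scale. With no scaling beyond library totals the low glucose value was -0.086 (adjusted p = 0.0504). Stard4 (ENSMUSG00000024378), a soluble sterol carrier and SREBP2 target, had 33.9, 39.5, 32.9 and 29.9 CPM in H_O, against 40.9, 40.2, 41.2 and 40.1 CPM in H_C. At low glucose it had 38.5, 37.0, 37.0 and 31.5 CPM in L_O, against 45.1, 48.1, 55.2 and 38.0 CPM in L_C. The high glucose groups did not overlap but the log2 fold change of -0.25 ± 0.10 missed the threshold (adjusted p = 0.0778), whereas the low glucose groups overlapped and the value of -0.37 ± 0.10 passed (adjusted p = 0.00903). Stard4 passed at high glucose without L_C replicate 3, L_C replicate 4 or H_O replicate 2, with adjusted p between 0.0202 and 0.0482.

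Markers of other macrophage states moved with ox-LDL as well. Over all tested entries, 11.5% fell and 10.4% rose at high glucose, and 13.8% fell and 12% rose at low glucose. Of the 7 macrophage markers, 3 rose and 1 fell at high glucose, and 1 rose and 2 fell at low glucose. The 6 markers of large peritoneal macrophages summed to 92.2 to 101 CPM in H_O against 181 to 198 CPM in H_C, and to 92.6 to 99.9 CPM in L_O against 181 to 211 CPM in L_C, and 3 of 6 and 4 of 6 fell. The 6 markers of small peritoneal macrophages and monocytes summed to 377 to 419 CPM in H_O against 746 to 782 CPM in H_C, and to 491 to 533 CPM in L_O against 955 to 1038 CPM in L_C, and 3 of 6 and 5 of 6 fell. No entry of the whole count table was at 0 in every library, so the same holds for each marker in it and is no result about the markers. Neutrophil markers summed to 68.3 to 78.3 CPM in H_O against 108 to 114 CPM in H_C, and to 73.6 to 85.7 CPM in L_O against 123 to 171 CPM in L_C. Mast cell and eosinophil markers summed to 4.87 to 5.95 CPM in H_O against 19.1 to 23.2 CPM in H_C, and to 3.83 to 5.16 CPM in L_O against 13.2 to 20.2 CPM in L_C. Mesothelial and fibroblast markers summed to 28.2 to 77.5 CPM in H_O against 30.5 to 156 CPM in H_C, and to 18.5 to 29.8 CPM in L_O against 47.1 to 59.3 CPM in L_C. Ly6g, Ncr1, Fcer1a, Epx and Prg2 were not among the entries of the count table and do not enter the sums. The part of these shifts in the fall of the sterol genes was not tested.

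Other genes of sterol and lipid handling were read from lists. Of 13 fatty acid synthesis genes that SREBP factors also drive, 8 fell and 1 rose at high glucose, and 8 fell and 0 rose at low glucose. Over all tested entries, 11.5% fell and 10.4% rose at high glucose, and 13.8% fell and 12% rose at low glucose. At high glucose Acss2, which makes acetyl-CoA, fell by 1.06 on the log2 scale, Mid1ip1, an activator of acetyl-CoA carboxylase, by 0.63 and the desaturase Scd2 by 0.62 (adjusted p = 1.29e-05, 4.59e-05 and 2.08e-04). At low glucose Scd2 fell by 1.18, the fatty acid synthase Fasn by 0.92 and Acss2 by 1.20 (adjusted p = 1.18e-07, 1.12e-06 and 2.47e-06). Of 10 tested genes for sterol-regulated protein degradation and SREBP regulation, 1 fell at high glucose and 2 at low glucose, and 0 rose. These falls, 10% and 20% of the list, lay near the shares of all entries. The ubiquitin ligase gene Rnf145 fell at both, by 0.51 and 0.58 on the log2 scale (adjusted p = 1.48e-06 and 2.81e-07), and Rnf139 fell at low glucose by 0.23 (adjusted p = 0.0279).

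In the remaining lists genes moved in either direction, where 10.4% of all tested entries rose and 11.5% fell at high glucose, and 12% rose and 13.8% fell at low glucose. Of 12 genes for lysosomal release, traffic and storage of sterol, 3 rose and 3 fell at high glucose, and 4 rose and 2 fell at low glucose. The lysosomal membrane protein gene Scarb2 rose by 0.48 and 0.49 on the log2 scale at high and low glucose, and the sterol carrier Stard5 by 0.31 and 0.34. Gramd1b, which takes sterol from the plasma membrane, rose by 0.46 at high glucose, and the lipid transfer protein gene Osbpl9 fell by 0.44 at low glucose. Of 9 genes that LXR, the oxysterol receptor, drives or that make and bind oxysterols, 3 rose and 5 fell at high glucose, and 2 rose and 4 fell at low glucose. Mylip, an LXR target that sends lipoprotein receptors to degradation, rose by 0.84 and 0.60, and the phospholipid remodelling gene Lpcat3 by 0.67 and 0.48. Apoe fell by 0.30 at high glucose and the exporter gene Abcg1 by 0.44 at low glucose. Of 8 tested helpers of sterol synthesis such as cytochrome b5 reductase, 0 moved at high glucose, and 1 rose (Por, by 0.19) and 1 fell (Cyb5r3, by 0.22) at low glucose. Of 13 genes of the other isoprenoid branches, 0 moved at high glucose and 1, Rabggta, fell at low glucose, by 0.21.

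Whether ox-LDL acted differently at the 2 glucose levels was tested as the difference of the 2 log2 fold changes, (H_O - H_C) - (L_O - L_C). Since L_C alone is labelled with mannitol, glucose and mannitol cannot be told apart in this difference. None of the 31 genes passed in edgeR, and 2 of all 13527 entries did (0.0148%). At an unadjusted p under 0.05 there were 3 of 31 (9.68%), Cyp51, Fdps and Soat1, where 8.58% of all entries lay, and DESeq2 and limma-voom called 0 of the 31. The differences ranged from -0.28 for Ebp to 0.35 for Nsdhl, and without L_C replicate 4 these were -0.18 and 0.14, with a range from -0.23 for Mvk to 0.33 for Hsd17b7. For Insig1 the difference was 0.0048 ± 0.067, with a 95% interval of -0.14 to 0.15, for Sc5d 0.034 ± 0.11 (-0.20 to 0.27), and for Cyp51, the smallest p, 0.29 ± 0.10 (0.079 to 0.50, adjusted p = 0.376). For the 7 genes called at only 1 glucose level, Acat1 included, the difference did not pass either, so they are not shown to differ between the levels.

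High glucose was compared first without ox-LDL. In H_C against L_C, 10 of the 31 genes fell and 0 rose, where 7.75% of all tested entries fell and 5.02% rose. At an unadjusted p under 0.05 there was 1 positive difference, Scap. The genes that fell were Cyp51, Sqle, Srebf2, Hmgcs1, Msmo1, Hsd17b7, Acat1, Fdps, Nsdhl and Npc1, of which 7 are synthesis enzymes. In H_O against L_O, 5 fell, Sqle, Msmo1, Soat1, Hmgcs1 and Srebf2, and 0 rose, where 3.39% of all tested entries fell and 2.71% rose, and 3 positive differences (Scap, Insig2 and Acat2) had an unadjusted p under 0.05. The count of 5 was 9 without L_C replicate 4 and 3 without H_O replicate 3, and the count of all entries lower moved with it, being 1014 without the first of these libraries and 352 without the second, against 459 with all libraries. There were 4 genes lower in both, Hmgcs1, Sqle, Msmo1 and Srebf2, which is 4 of 5 with ox-LDL and 4 of 10 without. Over all entries 309 (2.28%) were lower in both, of 459 lower with ox-LDL and 1049 without. The labels name mannitol for L_C and not for the H groups, so glucose and mannitol cannot be told apart in H_C against L_C. They name it for neither H_O nor L_O, so glucose and osmotic load cannot be told apart there.

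The glucose comparisons use the same libraries as the ox-LDL comparisons, so their values are no independent account of these genes. Sqle averaged 43.5 ± 0.699 CPM in H_C and 59.9 ± 7.10 CPM in L_C, with no overlap and a log2 fold change of -0.46 ± 0.068 (adjusted p = 2.29e-04). It averaged 29.9 ± 1.33 CPM in H_O and 40.1 ± 0.862 CPM in L_O, with no overlap and a log2 fold change of -0.42 ± 0.069 (adjusted p = 9.61e-04), which was the largest fall of the 31 genes between these groups. Cyp51 averaged 61.1 ± 4.69 CPM in H_C and 86.6 ± 10.0 CPM in L_C, a log2 fold change of -0.50 ± 0.070 (adjusted p = 1.28e-04). With ox-LDL the H_O libraries of Cyp51 also lay below all L_O libraries, but the log2 fold change of -0.21 ± 0.071 did not pass (adjusted p = 0.0861). It passed without L_C replicate 4 (adjusted p = 0.0174), in DESeq2 (0.0476) and with only the 8 libraries compared (0.00566). Hmgcs1 had log2 fold changes of -0.32 ± 0.055 in H_C against L_C and -0.22 ± 0.055 in H_O against L_O (adjusted p = 7.22e-04 and 0.0203), and Msmo1 of -0.27 ± 0.047 and -0.22 ± 0.047 (adjusted p = 8.79e-04 and 0.00905). In all of these pairs the groups did not overlap.

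Among the controllers, Srebf2 averaged 181 ± 4.76 CPM in H_C and 216 ± 7.96 CPM in L_C, a log2 fold change of -0.25 ± 0.040 (adjusted p = 3.98e-04). With ox-LDL it averaged 147 ± 4.30 CPM in H_O and 164 ± 4.84 CPM in L_O, a log2 fold change of -0.15 ± 0.040 (adjusted p = 0.0303). The H_O and L_O call of Srebf2 was lost without L_O replicate 1 or 3 or H_O replicate 1, 3 or 4 (adjusted p between 0.0755 and 0.0984), and that of Hmgcs1 without L_O replicate 1 or 2 or H_O replicate 1, 2 or 3 (0.0504 to 0.0724). Insig1, which had the smallest p-value with ox-LDL, did not pass with glucose: its log2 fold changes were -0.080 ± 0.047 (interval -0.18 to 0.019) in H_C against L_C and -0.075 ± 0.048 (interval -0.18 to 0.025) in H_O against L_O. Sc5d and Fdft1 did not pass either, at -0.11 ± 0.077 and -0.15 ± 0.072 in H_C against L_C and -0.078 ± 0.078 and -0.12 ± 0.074 in H_O against L_O. Fdft1 passed in H_C against L_C without L_C replicate 2 (adjusted p = 0.0229).

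The thiolases had glucose differences of opposite sign, of which 1 passed a test. Acat1 averaged 16.5 ± 1.30 CPM in H_C and 21.6 ± 1.72 CPM in L_C, with no overlap and a log2 fold change of -0.39 ± 0.082 (adjusted p = 0.00436). In H_O against L_O its log2 fold change was -0.23 ± 0.081 (adjusted p = 0.106). Acat2 had positive log2 fold changes of 0.21 ± 0.11 and 0.35 ± 0.11, of which neither passed (adjusted p = 0.224 and 0.0707), although all 4 H_O libraries lay above all 4 L_O libraries. The H_O and L_O difference of Acat2 passed without L_C replicate 3 or L_C replicate 4, with adjusted p of 0.0406 and 0.0180.

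Of the storage genes, Soat1 averaged 789 ± 17.4 CPM in H_O and 875 ± 5.99 CPM in L_O, with no overlap and a log2 fold change of -0.15 ± 0.032 (adjusted p = 0.00951). In H_C against L_C its value was -0.038 ± 0.032 (interval -0.11 to 0.030). Npc1 was lower in H_C than in L_C by 0.13 on the log2 scale (adjusted p = 0.0476), a call that was lost in 20 of 25 alternatives, among them the leaving out of any library other than L_C replicate 2 or 4 (adjusted p between 0.0522 and 0.134). Without L_C replicate 4 its value was -0.085. In H_O against L_O Npc1 had a log2 fold change of -0.13 ± 0.041 (adjusted p = 0.0836), and it passed without L_C replicate 4 (adjusted p = 0.00264). Nsdhl, Fdps and Hsd17b7 fell by 0.47, 0.23 and 0.54 on the log2 scale in H_C against L_C (adjusted p = 0.0330, 0.0224 and 0.00145). The Nsdhl call was lost without L_C replicate 4, where its value was -0.25, or without H_C replicate 1, 2 or 4 (adjusted p between 0.0614 and 0.0921), and the Fdps call without L_C replicate 1 or 3 or H_C replicate 1 or 4 (0.0593 to 0.0748).

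Npc2, Stard4, Insig2 and Scap passed neither glucose test with all libraries in. In H_C against L_C, Stard4 passed without L_C replicate 4, Insig2 (with a positive difference) without L_C replicate 1, and Idi1 without L_C replicate 2, with adjusted p of 0.0270, 0.0439 and 0.0143. In H_O against L_O, Npc2 (with a positive difference) and Mbtps2 passed without L_C replicate 4, with adjusted p of 0.0204 and 0.0129, and Hsd17b7 without H_O replicate 1, with 0.0427. Mvk passed there without L_C replicate 1, L_C replicate 4 or L_O replicate 1 (adjusted p between 0.0328 and 0.0421). L_C replicate 4 is not in H_O against L_O itself but enters the fit of all 16 libraries, and with only the 8 libraries of that comparison in the fit 9 of the 31 genes and 901 of all entries fell.

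**Figure D5:**
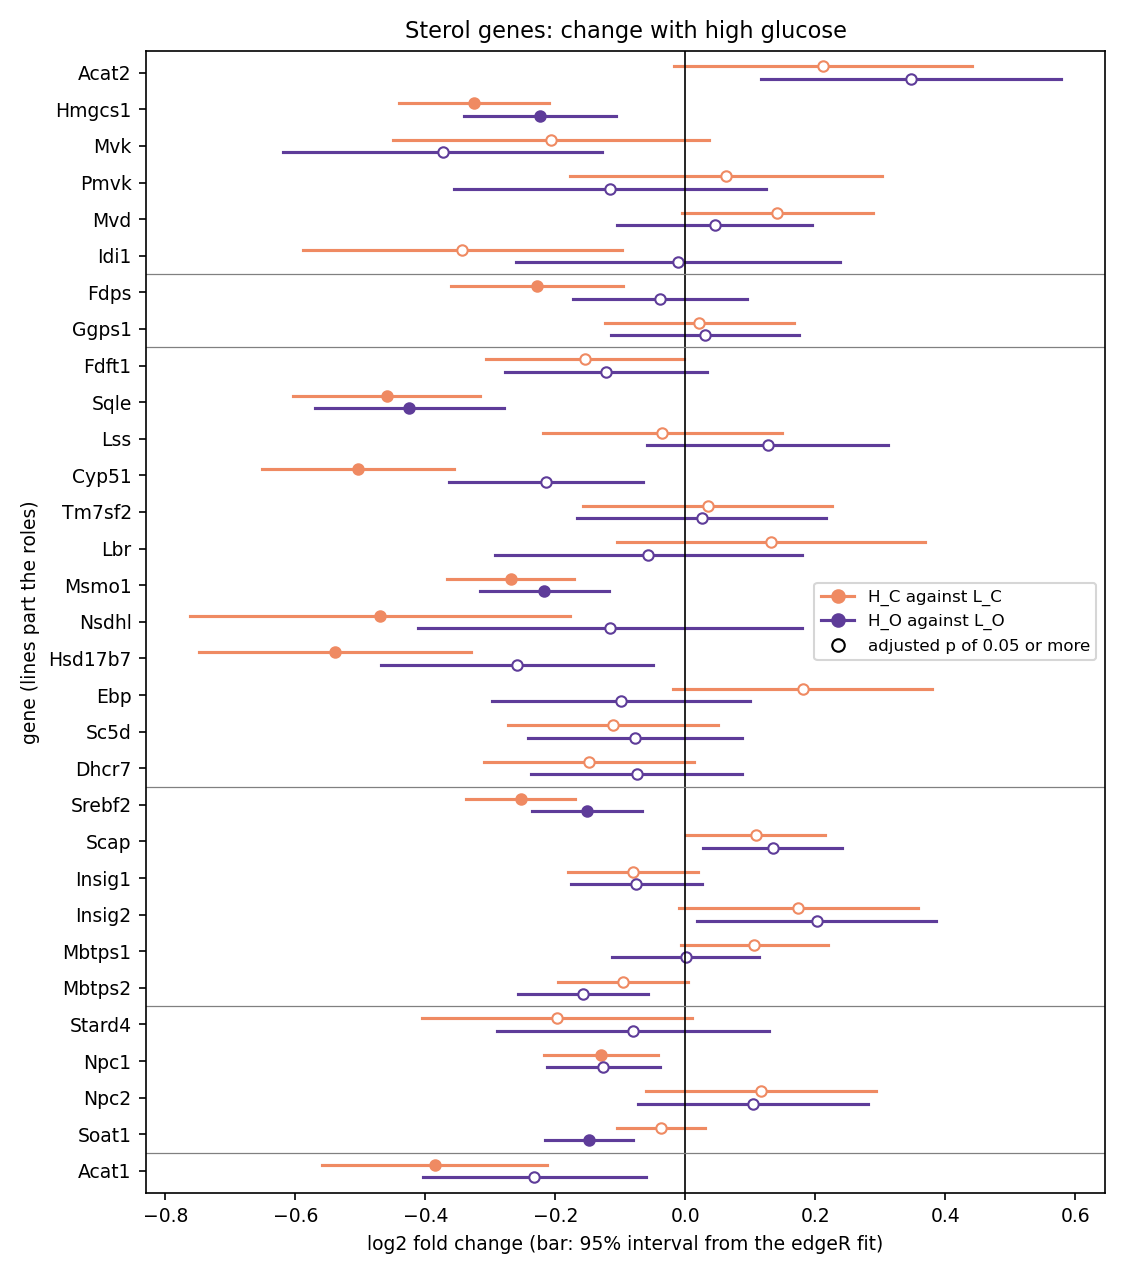
Log2 fold change with high glucose for each of the 31 genes (rows, parted by role), H_O against L_O and H_C against L_C, with 95% intervals from the edgeR fit. Filled points have an adjusted p under 0.05 and open points do not. Sqle lies left of 0 in both comparisons at -0.42 and -0.46, Insig1 lies close to 0 at -0.075 and -0.080, and Acat2 lies right of 0 with open points.

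Counted by overlap alone, 9 genes were lower and 3 higher in H_O than in L_O with no library in common range, where 9.52% of all entries were below and 8.18% above. In H_C against L_C, 10 were lower and 1, Mvd, higher, where the shares of all entries were 9.82% and 7.58%. Marker lists also differed with glucose, where 3.39% of all tested entries fell and 2.71% rose in H_O against L_O. The shares in H_C against L_C were 7.75% and 5.02%. Of the small peritoneal macrophage and monocyte markers, 2 of 6 were lower in H_O than in L_O and 3 of 6 lower in H_C than in L_C. Of the 7 macrophage markers, 2 were higher in H_O than in L_O, and 1 was higher and 3 were lower in H_C than in L_C. In H_C against L_C, 1 marker each of the large peritoneal macrophage, neutrophil and T and NK cell lists was lower as well. Their part in the glucose differences was not tested. The median log2 fold change of the 31 genes was -0.081 in H_O against L_O and -0.11 in H_C against L_C, where the median of all tested entries was 0.00304 and -0.00454.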

How the data were processed

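The authors deposited 1 table of read counts per gene for 16 libraries of total RNA, whole numbers with no normalization. The submitters' processing notes name HISAT2, DESeq2 and mm10 without roles; the counter, annotation and strand setting are not given in the sources used here. Counts were tested as deposited with edgeR 4.0.16 in R 4.3.3 (TMM factors, filterByExpr, quasi-likelihood F test on group means over all 16 libraries, 12 residual degrees of freedom), with Benjamini-Hochberg adjustment over 13527 entries per comparison. CPM are TMM-scaled, and marker sums use library totals. An SE is the size of the log2 fold change over the square root of F. Values were printed per library for the 4 smallest adjusted p in each ox-LDL comparison, for genes called in a glucose comparison (up to 4 each), and always for Insig1, Insig2, Srebf2, Scap, Stard4, Soat1, Npc1, Npc2, Acat1 and Acat2. Other lists were named by their 3 smallest p. The members and lists were chosen with earlier results of these data known. Alternatives were DESeq2 1.42.0, limma 3.58.1 (voom), other scalings and filters, a replicate block and leaving out each library. Promoters were searched in RefSeq windows and exon overlaps in GENCODE M21. The code was checked on simulated counts.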

Additional observations from a re-analysis of the deposited data

Results flagged for a closer look

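In each gene and group of 4 libraries, the gap between an extreme library and its nearest neighbour was set against the group's range (Dixon's criterion at its 95% level). Of 124 such groups 8 passed, where chance alone flags about 1 in 20, or 6.2. Their levels are in CPM. L_C replicate 4 held 3 of the 8: Npc2 at 1300, where the other L_C libraries had 1840 to 1930, Lss at 30.4, where they had 39.7 to 41, and Ebp at 24.1, where they had 32.5 to 33.6. Hmgcs1 was high in L_C replicate 3 at 141, with the others at 128 to 130. Lss was high in L_O replicate 1 at 29.5, with the others at 25.7 to 26. Pmvk was low in H_O replicate 1 at 6.29, with the others at 7.03 to 7.17. Srebf2 was high in H_O replicate 2 at 154, with the others at 145 to 146, and Scap was low in H_O replicate 3 at 70.7, with the others at 75.5 to 75.8.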

How the results depend on the processing

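Of 50 calls of single sterol genes, 40 held under each of the 25 alternatives and 10 were lost under some. Of 105 values that did not pass, 19 passed under some, and 0 called values changed sign. With no scaling beyond library totals, 3 sterol genes rose in L_O against L_C, against 0 with TMM. With DESeq2, 1 sterol gene rose and 9 fell in H_O against L_O, and with only the 8 libraries compared 2 rose and 9 fell, against 0 and 5. Over all entries, no scaling gave 2857 higher and 1392 lower in L_O against L_C (1623 and 1867 with TMM), and 2176 higher and 1166 lower in H_O against H_C (1406 and 1556 with TMM). Only the 8 libraries compared gave 340 higher and 574 lower in H_C against L_C (679 and 1049 with all), and 718 and 901 in H_O against L_O (367 and 459 with all). For the difference of ox-LDL effects, DESeq2 called 78 higher and 17 lower entries, limma-voom 0 and 0, and edgeR 1 and 1. The causes were not tested.

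Leaving out 1 library gave 14 to 18 lower and 1 higher sterol genes in H_O against H_C, 16 to 20 lower and 0 to 2 higher in L_O against L_C, 3 to 9 lower and 0 to 2 higher in H_O against L_O, 7 to 12 lower and 0 to 1 higher in H_C against L_C, and 0 in the difference. Over all entries it gave 1146 to 1964 higher and 1320 to 2001 lower in H_O against H_C, 1342 to 1891 and 1627 to 1990 in L_O against L_C, 240 to 749 and 286 to 1014 in H_O against L_O, 463 to 922 and 789 to 1265 in H_C against L_C, and 0 to 41 and 0 to 12 in the difference.

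The replicate numbers showed no clear sign of pairing the libraries. Same-numbered libraries correlated between -0.164 and 0.0666 in their deviations from the group means over 24 pairs. Of 16 libraries, 5 correlated best with their own number, where a random pick among the 4 numbers would match 1 in 4. The labels do not say what a number stands for, and these values cannot show whether same-numbered libraries shared an animal or a day. With a replicate block, 16 sterol genes fell and 1 rose in H_O against H_C, 17 and 0 in L_O against L_C, 4 and 0 in H_O against L_O, and 9 and 0 in H_C against L_C. The block gave 0 higher and 0 lower entries in the difference of ox-LDL effects.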
